A study of Mus musculus with 60 samples.

Results

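The genes described here are the 6 transcripts Fos, Fosb, Fosl2, Jun, Junb and Jund, which encode the Fos and Jun proteins of the transcription factor AP-1. They were taken by symbol from the 10 deposited tables, and all 6 were held in every table, among 13986 genes held in at least 1 table and 13393 held in all. The tables come from poly(A)-enriched RNA sequencing of the hippocampus of wild type C57BL/6 mice at postnatal day 105, with 60 libraries in 12 groups of 5. Whole, dorsal and ventral hippocampus were each sampled in mice left in the Homecage and, 45 minutes after the treatment, in mice of the Handling, Restraint and Swim groups, and no genetic change or drug is given in the labels for any group. Each table holds the mean estimated count of 2 groups of 5 libraries and the authors' fold change, p-value and adjusted p. Group means are given without a spread, since no library's own values were analysed here, and the replicate error enters through the authors' test. A standard error was worked back from the fold change and p-value of every gene in each table, and the 95% intervals given in brackets rest on it. The labels do not say whether libraries came from separate mice beyond 5 mice per condition, or whether a dorsal and a ventral library share a mouse.

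AP-1 is a dimer of basic leucine zipper proteins that binds DNA at short palindromic sites. Jun proteins pair with each other or with Fos proteins, whereas Fos proteins need a Jun partner to bind DNA well. In neurons, Fos, Fosb and Junb are immediate early genes, transcribed within minutes of calcium entry and MAP kinase or CREB signalling without new protein synthesis, and Fos RNA is widely used as a mark of recently active cells in the hippocampus. Jund is regarded as the more constitutive Jun gene, and Fosl2 encodes Fra-2, a Fos relative with a slower and smaller response in many cells. In bulk tissue, a change in RNA per cell and a change in the number of cells that hold the RNA cannot be told apart.

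In the GENCODE annotation of GRCm38, Fos lies at chr12:85473890-85477273 on the plus strand, Fosb at chr7:19302696-19310051 on the minus strand and Fosl2 at chr5:32135801-32157842 on the plus strand. Jun lies at chr4:95049034-95052222 on the minus strand, Junb at chr8:84974484-84978718 on the minus strand and Jund at chr8:70698949-70700616 on the plus strand. The counts are per gene, so the full-length FosB and the shorter splice product delta-FosB were not separated. The transcripts of Jund and Junb are rich in G and C, with 67.1% and 62.7%, above 99.6% and 98.6% of the genes held. The other 4 range from 54.4% for Fosl2 to 56.7% for Fosb.

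The 250 bases upstream of the transcription start in RefSeq (GRCm38.p6) were read and are shown for Fos, Fosb and Junb, which moved together in whole and ventral hippocampus, and for Jun, which passed no test against Homecage. All 6 genes had an entry. The RefSeq start is that of the GENCODE gene for Fos and Jun and lies close to it for Fosb and Junb. For Jund the window, chr8:70697489-70697738, ends well before the GENCODE start given above, and for Fosl2 the window, chr5:32136222-32136471, lies inside the GENCODE gene. Capitals mark every match, on either strand, to TGACG (the core of the cyclic AMP response element), TATAAA (the TATA box) or CCAAT (the CCAAT box). Fos spans chr12:85473640-85473889 on the plus strand, Fosb chr7:19310046-19310295, Junb chr8:84978749-84978998 and Jun chr4:95052223-95052472, these 3 on the minus strand.
Fos: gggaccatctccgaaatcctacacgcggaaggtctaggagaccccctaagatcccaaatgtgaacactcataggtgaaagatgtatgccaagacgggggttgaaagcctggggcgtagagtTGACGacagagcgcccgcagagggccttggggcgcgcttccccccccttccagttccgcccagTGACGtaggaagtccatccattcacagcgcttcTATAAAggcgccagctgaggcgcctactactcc
Fosb: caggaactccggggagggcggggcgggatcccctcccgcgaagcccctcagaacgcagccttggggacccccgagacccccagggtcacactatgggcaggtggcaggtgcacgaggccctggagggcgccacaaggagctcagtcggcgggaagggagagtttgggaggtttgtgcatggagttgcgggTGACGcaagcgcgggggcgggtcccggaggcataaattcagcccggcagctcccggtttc
Junb: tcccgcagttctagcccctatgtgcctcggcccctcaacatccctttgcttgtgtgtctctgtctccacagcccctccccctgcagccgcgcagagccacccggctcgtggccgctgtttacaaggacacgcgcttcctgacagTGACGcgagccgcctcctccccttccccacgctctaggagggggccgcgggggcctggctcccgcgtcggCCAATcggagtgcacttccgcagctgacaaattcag
Jun: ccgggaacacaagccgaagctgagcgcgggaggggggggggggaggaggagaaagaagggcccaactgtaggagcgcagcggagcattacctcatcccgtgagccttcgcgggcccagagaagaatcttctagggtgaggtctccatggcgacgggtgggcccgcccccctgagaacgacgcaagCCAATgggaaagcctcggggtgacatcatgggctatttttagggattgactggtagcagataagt

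TGACG was present in the windows of Fos, Fosb and Junb, in each on the strand of the gene. It was not in the RefSeq windows of Jun, Fosl2 and Jund. For Fosl2 and Jund these windows are not the sequence before the GENCODE start, which was not searched. The first base of TGACG lay at -66 and -129 in Fos, at -60 in Fosb and at -106 in Junb, counted from the RefSeq start. Of 32851 promoter windows of the same length, 17.8% hold TGACG, 12.4% hold TATAAA and 33.8% hold CCAAT. The first base of TATAAA lay at -33 in Fos, and CCAAT began at -36 in Junb and at -65 in Jun. The whole palindrome TGACGTCA, the AP-1 sites TGACTCA and TGAGTCA, and the CArG box of serum response factor were in none of the 6 windows, against 1.55%, 4.46% and 1.47% of all windows. At such shares none among 6 windows is near the background. Sequence farther upstream was not searched, so the windows cannot show whether these genes hold such sites there. These matches describe letters in a 250-base window and no binding was measured.

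Tissue markers were checked once for all groups, whose totals lay between 19918572 and 25010052 estimated counts. The 6 ventral pole markers were all higher in ventral than in dorsal Homecage hippocampus, and markers of excitatory neurons summed to at least 5460 CPM (counts scaled to a group total of 1000000) in every group. Choroid plexus markers stood apart in 2 groups, with 2130 CPM in dorsal Restraint and 2060 CPM in ventral Handling, against 236 and 188 CPM in the Homecage groups of these regions. There 5 of 7 and 10 of 10 of the markers measured were called higher. The other treatment tables held 5 to 8 of the 10 listed. Called higher among these were 1 in whole Handling, 2 in whole Restraint and 1 in ventral Restraint. A marker low in Homecage was held only where its treated mean was high enough, so these counts partly follow from what was held. The sums also cover unlike sets, with 8 markers in dorsal Homecage and 7 in dorsal Restraint. The part of these markers in the values of the 6 genes was not tested. Markers of endothelial cells stayed between 170 and 208 CPM, and none was called in a treatment table. Those of blood cells ranged from 156 to 381 CPM, with none called. Thalamus markers were lower for 2 of 6 in ventral Swim (median log2 fold change -0.27) and higher for 1 in dorsal Swim (0.12). For oligodendrocytes 1 of 6 was higher in dorsal Swim (0.21) and in ventral Restraint (0.14). Single markers of dentate granule, CA1 and CA3 cells, microglia and neocortex layers were higher in ventral Restraint or Swim. The part of these markers in the 6 genes was not tested.

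Fos, the founding member of its family, rose in all 9 treatment tables. Its mean level in Homecage mice was 4.93 CPM in whole, 5.66 in dorsal and 5.55 in ventral hippocampus. After Handling it was 18.4, 18.4 and 22.6 CPM, after Restraint 18.7, 14.4 and 22 CPM, and after Swim 19.2, 15.5 and 22.9 CPM, in the same order of regions. Every treated group lay above every Homecage group, and the lowest treated levels were those of dorsal Restraint and dorsal Swim. In the authors' deposited table for dorsal Restraint the log2 fold change was 1.35 (interval 1.11 to 1.60, adjusted p 7.1e-24), the smallest of the 9, and in that for ventral Swim 2.06 (1.81 to 2.30, adjusted p 3.4e-57), the largest. Fos had the lowest p of all genes tested in whole Handling, whole Restraint, whole Swim, ventral Restraint and ventral Swim, and ranked 2 or 3 in the other 4 tables.

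Fosb, the relative whose products accumulate with repeated stimulation, rose in all 9 tables too. Its mean level was 5.22 CPM in whole, 5 in dorsal and 5.64 in ventral Homecage hippocampus. It reached 10.8, 11.4 and 11.1 CPM in whole, 11.6, 10.4 and 8.53 CPM in dorsal, and 13.7, 15.4 and 15.1 CPM in ventral hippocampus after Handling, Restraint and Swim. The treated groups did not overlap the Homecage groups, and the 3 ventral treated groups were the highest. The authors' deposited table for dorsal Swim gave the smallest log2 fold change, 0.77 (0.55 to 0.99, adjusted p 1.4e-08), and that for ventral Restraint the largest, 1.46 (1.25 to 1.68, adjusted p 1.2e-36).

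Fosl2 had smaller fold changes than Fos and Fosb in every treatment table, and a higher level in ventral than in dorsal hippocampus. Homecage means were 54.2 CPM in whole, 39.4 in dorsal and 73.4 in ventral hippocampus. After Handling, Restraint and Swim they were 69.1, 65.5 and 63.4 CPM in whole, 51.8, 49.1 and 47.5 in dorsal, and 93.2, 89.5 and 88.4 in ventral hippocampus. Within each region all 3 treated means lay above Homecage, and Handling had the highest mean. By the adjusted p of the authors' deposited tables it rose in 7 of 9 tables, with log2 fold changes from 0.27 in whole Restraint (adjusted p 8.3e-05) to 0.38 in dorsal Handling (adjusted p 0.0018). The exceptions were whole Swim, at 0.23 (adjusted p 0.63), and dorsal Swim, at 0.27 (adjusted p 0.085), in the authors' deposited tables, and dorsal Swim passed after GC correction (0.31, adjusted p 0.021), in which the fitted dependence of fold change on the GC content of transcripts was taken off.

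**Figure D1:**
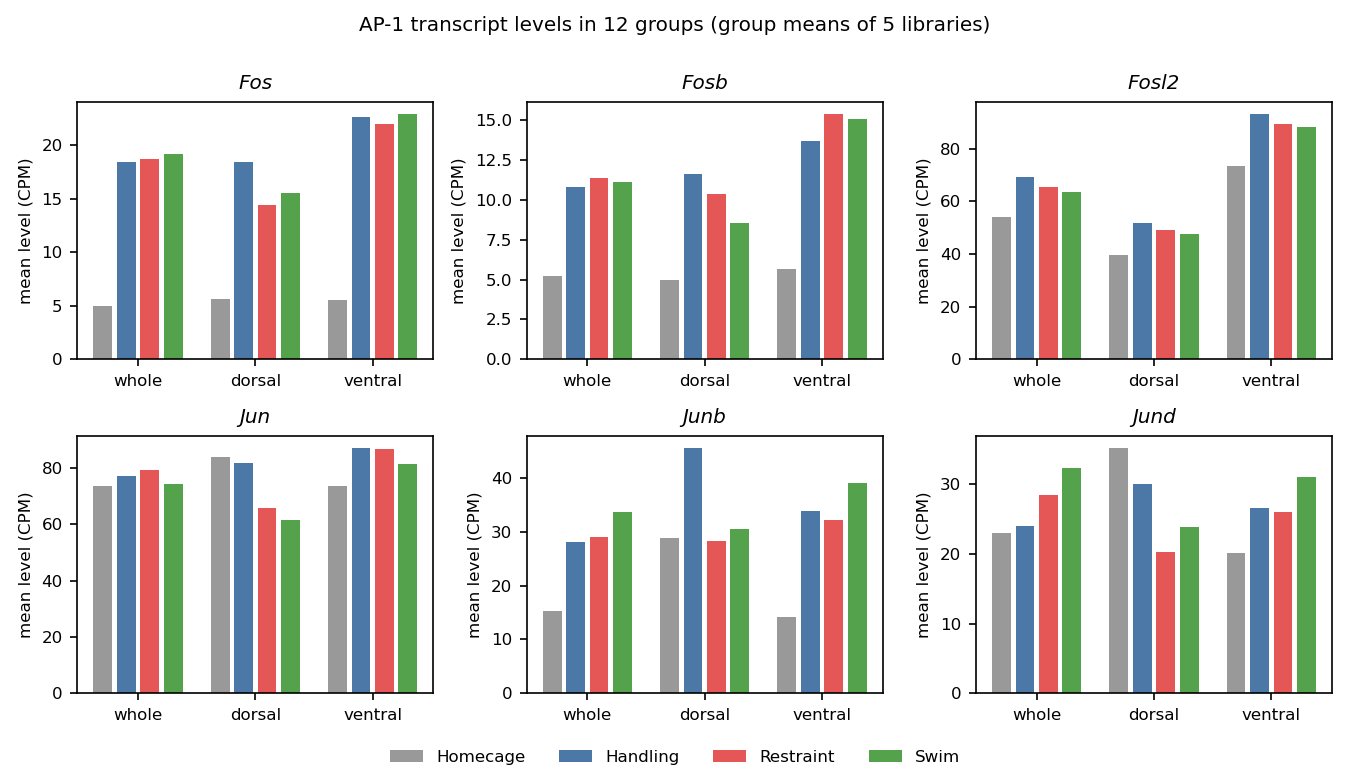
Mean level of each transcript in CPM (vertical axis from 0) in the 12 groups, as bars coloured by condition and set out by region; each bar is a mean of 5 libraries and no spread between libraries is shown. Fos goes from about 5 CPM in Homecage to between 14.4 and 22.9 CPM in treated groups, while dorsal Homecage has the highest Jund bar (35.1 CPM) of the 12.

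Junb, a Jun protein that is itself an immediate early product, rose in whole and ventral hippocampus and passed no test in dorsal hippocampus. Its Homecage mean was 15.3 CPM in whole and 14.1 in ventral hippocampus, but 28.8 in dorsal hippocampus. After Handling, Restraint and Swim it was 28, 29 and 33.6 CPM in whole, 33.8, 32.1 and 39 in ventral, and 45.5, 28.3 and 30.5 in dorsal hippocampus. The treated means of the 3 regions overlapped, and dorsal Homecage lay among them. In the authors' deposited tables the log2 fold changes were 0.88, 0.92 and 1.14 in whole (adjusted p 3.4e-05, 4.4e-16 and 5.4e-13) and 1.24, 1.21 and 1.46 in ventral hippocampus (adjusted p 0.0018, 2.9e-07 and 5.1e-12). The dorsal values in the authors' deposited tables were 0.62 after Handling (interval -0.06 to 1.31), -0.02 after Restraint (-0.47 to 0.43) and 0.06 after Swim (-0.38 to 0.50), with adjusted p of 1, 0.99 and 0.93. Implied errors of Junb were 0.22 to 0.35 in dorsal, 0.19 to 0.27 in ventral and 0.1 to 0.16 in whole tables, so a dorsal rise of the whole-hippocampus size lies within the Handling interval and outside those of Restraint and Swim. After GC correction the dorsal values for Handling, Restraint and Swim were 0.75, 0.22 and 0.30, and none passed.

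Jund passed the test in 1 of 9 tables. Its mean level was 23 CPM in whole, 35.1 in dorsal and 20.1 in ventral Homecage hippocampus. After Handling, Restraint and Swim it was 23.9, 28.4 and 32.2 CPM in whole, 29.9, 20.3 and 23.8 in dorsal, and 26.5, 26 and 31 in ventral hippocampus. Whole and ventral treated means lay above Homecage and dorsal treated means below it. The authors' deposited table for ventral Swim gave a log2 fold change of 0.62 (0.32 to 0.92, adjusted p 0.0045), which became 0.27 (adjusted p 0.65) after GC correction. The dorsal values were -0.24, -0.79 and -0.59 for Handling, Restraint and Swim in the authors' deposited tables (adjusted p 1, 0.06 and 0.32), and -0.06, -0.42 and -0.24 after GC correction.

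Jun, the transcript of c-Jun and the most abundant of the 6 per length, passed the test in none of the 9 tables. Homecage means were 73.6 CPM in whole, 84 in dorsal and 73.8 in ventral hippocampus. After Handling, Restraint and Swim they were 77.3, 79.3 and 74.2 CPM in whole, 81.7, 66 and 61.4 in dorsal, and 87.1, 86.7 and 81.6 in ventral hippocampus. Dorsal Restraint and dorsal Swim were the lowest of the 12 groups. In the authors' deposited tables the values nearest to a call were -0.46 in dorsal Swim (-0.70 to -0.21, adjusted p 0.057) and 0.24 in ventral Restraint (0.08 to 0.41, adjusted p 0.095). Its unadjusted p was under 0.05 in dorsal Restraint, dorsal Swim and the 3 ventral tables.

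**Figure D2:**
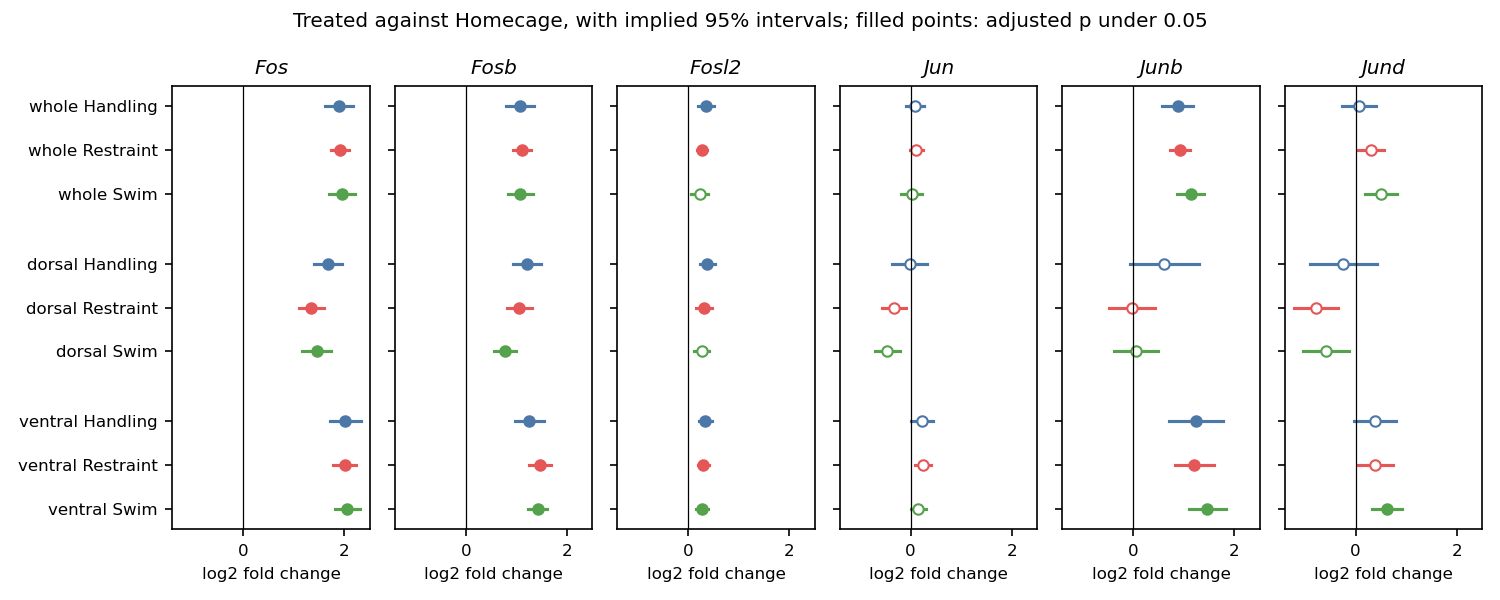
Log2 fold change of each treated group against Homecage of its region (horizontal axis) for the 6 genes, 1 panel each, from the authors' deposited tables; lines are implied 95% intervals, and filled points have a deposited adjusted p under 0.05. Fos and Fosb are filled in all 9 lines of their panels, Jun in none, and Junb in whole and ventral hippocampus but not in dorsal.

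Counted by table, with the authors' adjusted p at 0.05, every member that passed was higher than in Homecage. In whole hippocampus 4 of 6 passed after Handling, where 0.395% of all genes passed in either direction and 0.366% as higher. After whole Restraint it was 4 of 6 (0.541% of all genes, 0.504% as higher), and after whole Swim 3 of 6 (0.395%, 0.336% as higher). In dorsal hippocampus 3 of 6 passed after Handling (0.125% of all genes, 0.118% as higher), 3 of 6 after Restraint (0.616%, 0.381% as higher) and 2 of 6 after Swim (0.447%, 0.359% as higher). In ventral hippocampus 4 of 6 passed after Handling (0.856% of all genes, 0.813% as higher), 4 of 6 after Restraint (2.39%, 1.48% as higher) and 5 of 6 after Swim (6.94%, 4.65% as higher). After GC correction the share of all genes called in ventral Swim was 1.03%, with 4 of 6 members, and that in ventral Restraint 1.74%, again with 4. In dorsal Swim 3 of 6 members passed after it, with 0.403% of all genes. The median log2 fold change of the 6 ran from 0.15 in dorsal Restraint to 1.02 in ventral Swim, against medians over all genes between -0.01 and 0.01. The 3 tables of a region share their Homecage libraries, so they do not repeat each other independently.

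Handling, Restraint and Swim were then compared with each other through their common Homecage group, with an error that is an upper bound because that group enters both sides. None of the 6 members passed in any of the 9 pairs of treatments, where 0.0294% of all genes passed for whole Restraint against Handling, 0.00734% for whole Swim against Handling and 0% for whole Swim against Restraint. The share of all genes that passed in dorsal hippocampus was 0.0147% for Restraint against Handling, 0.0221% for Swim against Handling and 0% for Swim against Restraint, and in ventral hippocampus 0.139%, 0.117% and 0.0073% in the same order. At an unadjusted p under 0.05, 2 members differed in dorsal Swim against dorsal Handling and none in the other 8 pairs. These were Fosb, lower after Swim by a log2 difference of -0.43 (-0.79 to -0.08), and Jun, also at -0.43 (-0.86 to -0.00), both with an adjusted p of 1. For Fos in whole hippocampus the intervals were -0.32 to 0.36 for Restraint against Handling and -0.32 to 0.44 for Swim against Handling, so a difference between treatments of up to these sizes is compatible with the data. For Junb in dorsal hippocampus they reached from -1.46 to 0.18 for Restraint against Handling.

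In Homecage mice the regions differed for 3 of the 6, where 38.4% of all genes passed, 18.4% as higher and 20% as lower in ventral hippocampus. The authors' deposited table put Fosl2 higher in ventral hippocampus by 0.85 (0.71 to 0.99, adjusted p 2e-30), and Junb and Jund lower by a log2 fold change of -1.09 (-1.61 to -0.57, adjusted p 0.00025) and -0.86 (-1.32 to -0.40, adjusted p 0.0012). Cell type markers differed between the same groups: those of dentate granule cells were lower in ventral hippocampus for 6 of 6 (median log2 fold change -1.39, 235 against 646 CPM), of oligodendrocytes for 6 of 6 (-0.63, 2960 against 4410 CPM) and of excitatory neurons for 4 of 5 (-0.58, 5460 against 8100 CPM). Other lists went the other way. Markers of the thalamus were higher in ventral hippocampus for 4 of 6, with 1 lower (median 0.59). Those of neocortex layers were higher for 4 of 5, with 1 lower (0.32). Markers of meningeal fibroblasts (0.54, 118 against 29.7 CPM) and of inhibitory neurons (0.12) were higher for 3 of 6 each. The part of all these markers in the regional differences of Fosl2, Junb and Jund was not tested. Fos, Fosb and Jun stood at -0.08, 0.13 and -0.23 in the authors' deposited table (adjusted p 0.75, 0.43 and 0.13). After GC correction Fosl2 was at 0.93 and Junb at -0.74 (adjusted p 0.019), and Jund, at -0.36, no longer passed (adjusted p 0.26).

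Whether dorsal and ventral hippocampus answered alike was tested on the difference between their fold changes, ventral minus dorsal. Here and for the levels after treatment below, the errors of the 2 regions were combined as if independent. The labels do not say whether the regions share mice, and if they do, the p-values and intervals would not hold as given. For Handling none of 6 members passed, where 0.0889% of all genes did, and none had an unadjusted p under 0.05. For Restraint 4 of 6 passed, all with the larger value in ventral hippocampus, where 1.98% of all genes passed in either direction and 1.75% in this one: Fos by 0.65 (0.31 to 0.99, adjusted p 0.02), Jun by 0.57 (0.29 to 0.86, adjusted p 0.015), Junb by 1.22 (0.63 to 1.81, adjusted p 0.012) and Jund by 1.18 (0.62 to 1.74, adjusted p 0.011). For Swim 5 of 6 passed in the same direction, where 10.2% of all genes passed and 6.93% in this one. These were Fos by 0.60 (adjusted p 0.024), Fosb by 0.65 (adjusted p 0.0025), Jun by 0.61 (adjusted p 0.0032), Junb by 1.40 (adjusted p 0.0011) and Jund by 1.21 (adjusted p 0.0025). Fosl2 differed by -0.04, -0.01 and 0.01 for the 3 treatments, with the widest interval from -0.24 to 0.16. Restraint and Swim share the Homecage groups of both regions here, so their differences are not independent. Choroid plexus markers were high in dorsal Restraint, whereas for Swim they summed to 315 CPM in dorsal and 208 CPM in ventral hippocampus.

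None of these regional differences passed after GC correction of both tables, when 0.0518% of all genes passed for Restraint and 0.525% for Swim. The correction changed the fold changes only and kept the implied errors of the uncorrected values. The values were then 0.59 for Fos, 0.50 for Jun, 0.85 for Junb and 0.62 for Jund after Restraint (adjusted p 0.14, 0.14, 0.37 and 0.7). After Swim they were 0.48 for Fos, 0.47 for Fosb, 0.47 for Jun, 0.92 for Junb and 0.51 for Jund (adjusted p 0.36, 0.14, 0.12, 0.14 and 0.71). Those of Jund moved most, by the size of the trend at its GC content, which was -0.37 in dorsal Restraint, -0.35 in dorsal Swim, 0.19 in ventral Restraint and 0.35 in ventral Swim. At the GC content of Fos the trend lay between -0.05 and 0.07 in these 4 tables. For Restraint the value went from 0.65 to 0.59 for Fos and from 0.57 to 0.50 for Jun, with implied errors of 0.17 and 0.15. It went from 1.22 to 0.85 for Junb and from 1.18 to 0.62 for Jund. An adjusted p also depends on the p-values of all genes. Of these 267 passed before and 7 after GC correction for Restraint, and 1383 and 71 for Swim. A lost call alone thus does not show a lost difference. Across genes, which are not independent replicates, Spearman's rho of log2 fold change on GC content was -0.46 in dorsal Restraint, -0.58 in dorsal Swim, 0.38 in ventral Restraint and 0.67 in ventral Swim.

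**Figure D3:**
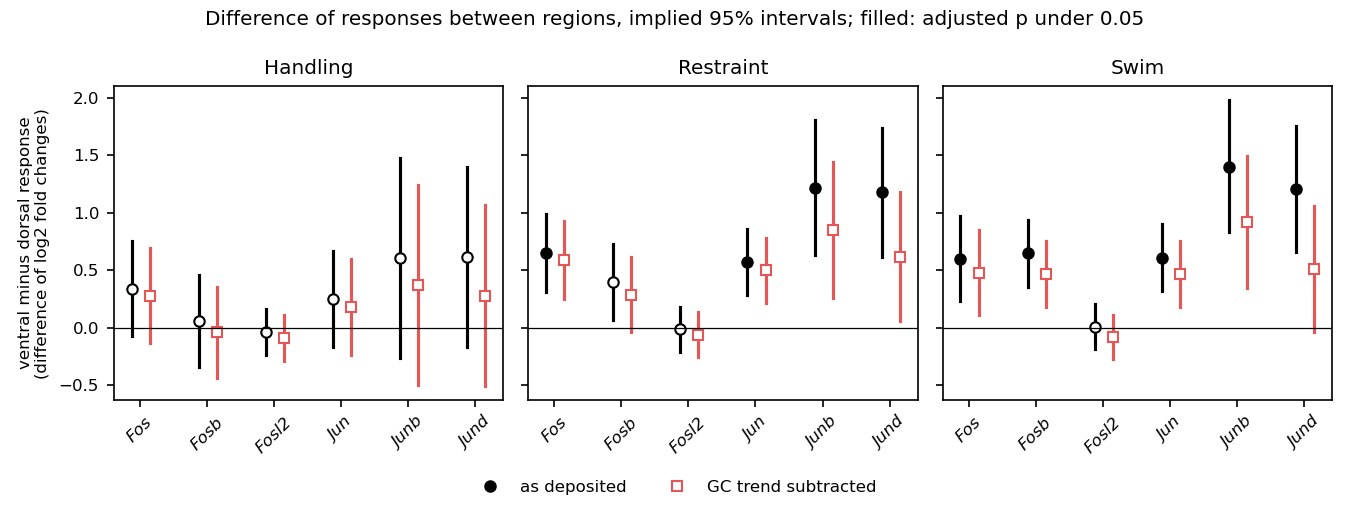
Difference in log2 fold change, ventral minus dorsal, of the 6 genes (vertical axis) for Handling, Restraint and Swim, as deposited (black circles) and after GC correction (red squares); lines are implied 95% intervals and filled symbols have an adjusted p under 0.05. Filled symbols are 4 for Restraint and 5 for Swim, all black, and Fosl2 lies near 0 in each panel. The lines of the red squares have the width of the uncorrected intervals.

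**Figure D4:**
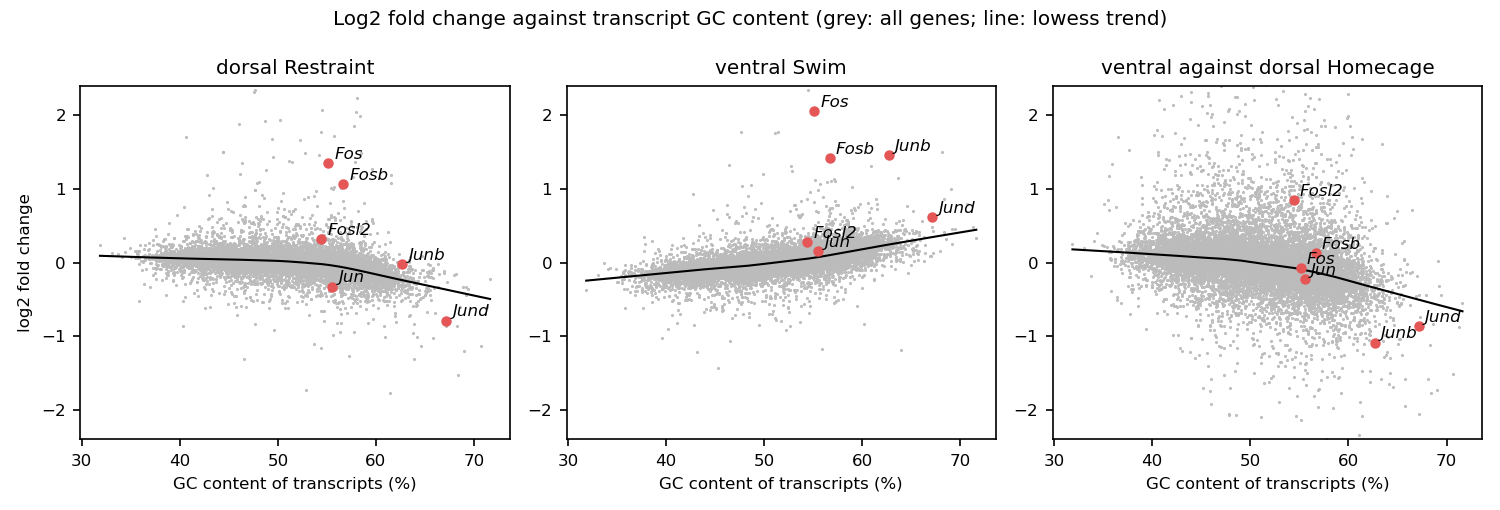
Log2 fold change (vertical axis, with genes beyond its ends not drawn) against transcript GC content in percent for dorsal Restraint, ventral Swim and the regional Homecage table; grey points are all genes, the line is the lowess trend and red points are the 6 genes. Jund and Junb lie at the GC-rich end, where the trend falls in dorsal Restraint and rises in ventral Swim, and Fos and Fosb lie far above it in both.

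The levels reached after treatment were compared between regions by adding the Homecage difference to the difference of responses. The error used was that of the difference of responses. For independent regions it is an upper bound, because it also holds both Homecage groups, so these intervals are wide. Fosl2 was higher in ventral hippocampus after each treatment, by 0.81 after Handling, 0.84 after Restraint and 0.86 after Swim on the log2 scale. It was the 1 of 6 members that passed after Handling, where 14.5% of all genes did, 7.79% as higher. After Restraint 3 of 6 passed (15.3% of all genes, 7.79% as higher), with Fos higher in ventral hippocampus by 0.58 (adjusted p 0.0082) and Fosb by 0.53 (adjusted p 0.014), and both still passed after GC correction (0.60 and 0.55, adjusted p 0.0051 and 0.0098). After Swim 4 of 6 passed (18.1% of all genes, 8.89% as higher): beside Fosl2, Fos at 0.53 (adjusted p 0.034), Fosb at 0.78 (adjusted p 3.2e-06) and Jun at 0.38 (adjusted p 0.048), of which Fosl2 and Fosb passed after GC correction (0.73, adjusted p 1.8e-05, for Fosb). The values of Fos and Jun moved little, to 0.50 and 0.35, with adjusted p of 0.054 and 0.087. Junb, lower in ventral hippocampus in Homecage mice, differed between regions by -0.48 (-1.35 to 0.39) after Handling, 0.14 (-0.46 to 0.73) after Restraint and 0.32 (-0.26 to 0.89) after Swim.

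For the make-up of the family, the group means were divided by merged exon length, in CPM per kilobase. In Homecage mice Jun held the largest share of the summed level of the 6, with 44.3% in whole, 39.2% in dorsal and 44.4% in ventral hippocampus, followed by Jund with 26.5%, 31.3% and 23.1%. Fos held 4.02%, 3.58% and 4.52% of it. After treatment the share of Fos was 11.6%, 11.2% and 11.1% in whole, 9.99%, 10.6% and 11% in dorsal, and 12.1%, 12% and 11.8% in ventral hippocampus for Handling, Restraint and Swim. The 3 Fos genes together were at 0.2 of the 3 Jun genes in whole, 0.12 in dorsal and 0.26 in ventral Homecage hippocampus, and between 0.24 and 0.37 in the 9 treated groups, above Homecage of the same region in each. In dorsal hippocampus that ratio was 0.24 after Handling and 0.28 after Restraint and after Swim, while the summed level of all 6 was 67.1 CPM per kilobase in Homecage and 78.3, 58.1 and 59.6 after Handling, Restraint and Swim. In ventral hippocampus the summed level was 52.2 in Homecage and 79.4, 77.8 and 82.4 after treatment. These shares describe group means, with no test, and they depend on the length used. With the longest transcript in place of merged exons, the Homecage shares in whole hippocampus were 40.2% for Jun, 24.1% for Jund, 14.8% for Junb, 14.4% for Fosl2, 2.41% for Fosb and 4.08% for Fos. The merged-exon shares of Junb, Fosl2 and Fosb there were 12.8%, 10.7% and 1.61%.

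**Figure D5:**
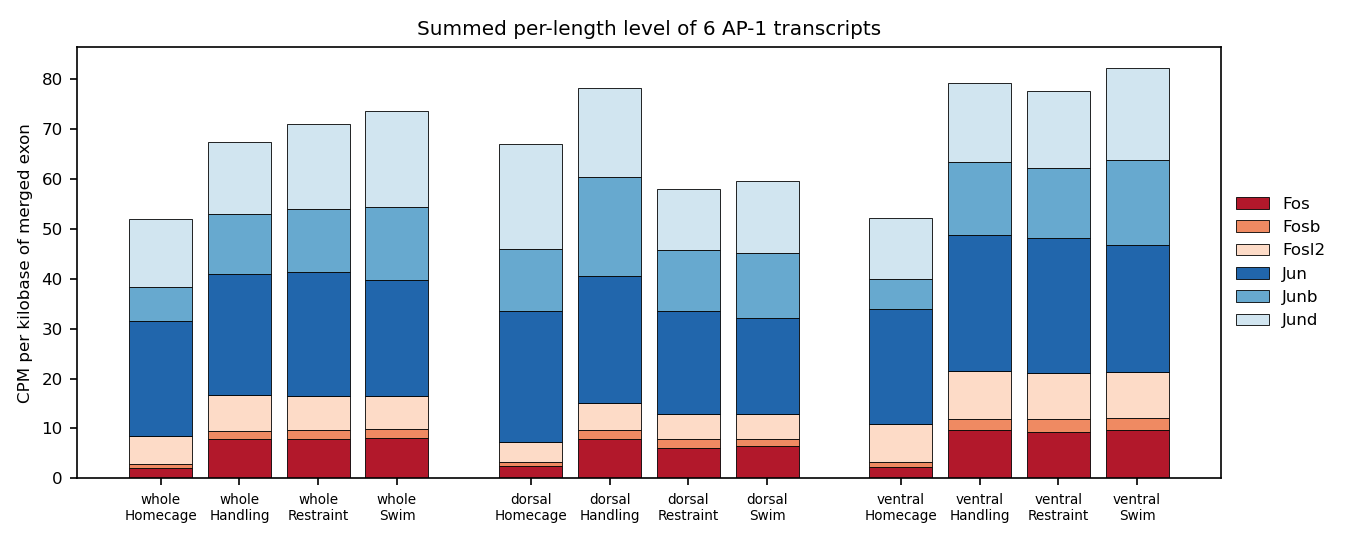
Summed per-length level of the 6 transcripts in each group (CPM per kilobase of merged exon, vertical axis from 0), stacked by gene with Fos genes in reds and Jun genes in blues; bars are group means without spread. The red part grows from Homecage to every treated group, and the blue part is larger in dorsal Homecage (59.8) than in dorsal Restraint (45.2) or dorsal Swim (46.7).

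Other genes of the pathway were read from 84 genes in lists of AP-1 partners, promoter factors, kinases, turnover factors and described AP-1 targets, of which 75 or 76 were held in each table. None passed in any of the 3 Handling tables. In whole hippocampus 2 were higher after Restraint and 2 after Swim, Maff and Atf3 in each, where 0.541% and 0.395% of all genes were called. In dorsal hippocampus 1 was higher after each of these treatments, Maff, where 0.616% and 0.447% of all genes were called. The share of all genes called in the Handling tables was 0.395% in whole, 0.125% in dorsal and 0.856% in ventral hippocampus, so a count of none among 75 is near the background. After ventral Restraint, where 2.39% of all genes were called, 5 were higher and 2 lower. After ventral Swim, where 6.94% were called, 13 were higher and 2 lower, and GC correction left 4 higher and 1 lower after Restraint and 4 higher and none lower after Swim. The median of the lists together was 0.05 in ventral Restraint and 0.04 in ventral Swim, against 0.00 and -0.01 over all genes.

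Among the partners, Maff, a small Maf protein, and Atf3, a stress-induced factor that pairs with Jun, had the largest values. For Maff the authors' deposited tables gave 2.03, 1.85 and 2.00 after Restraint in whole, dorsal and ventral hippocampus (adjusted p 1.2e-12, 1.2e-06 and 5.4e-10), and 1.52, 1.31 and 1.59 after Swim (adjusted p 1.4e-05, 0.0051 and 1.6e-06), with 9.2 to 11.6 mean counts in Homecage. It was not held in the Handling tables. The smallest sum of 2 group means held was 22, so a gene this low in Homecage was held only where its treated mean was high enough. Whether Maff answered to Handling therefore cannot be read here. Its calls after Restraint and Swim come only from comparisons that it entered in this way. For Atf3 the authors' deposited tables gave 1.35 after whole Restraint, 1.06 after whole Swim, 2.11 after ventral Restraint and 1.75 after ventral Swim (adjusted p 0.0089, 0.035, 2e-07 and 4.6e-07), while the dorsal values of 0.59 and 0.65 did not pass (adjusted p 0.37 and 0.28). After Handling Atf3 stood at 0.80, 0.86 and 0.95 in whole, dorsal and ventral hippocampus in the authors' deposited tables. None of these passed (adjusted p 0.66, 0.27 and 0.092). The mean Homecage count of Atf3 was 27.4 in dorsal and 12.2 in ventral hippocampus. That is a log2 fold change of -1.28 (adjusted p 0.00018) in the authors' deposited table. Mafk, another small Maf, rose by 0.48 and 0.55 after ventral Restraint and ventral Swim in the authors' deposited tables (adjusted p 0.00039 and 1.2e-07).

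The upstream and downstream genes that passed did so in ventral hippocampus. Mef2c, a neuronal factor that binds early gene promoters, fell by 0.40 after Restraint and by 0.36 after Swim in the authors' deposited tables (adjusted p 2.5e-05 and 0.0024). The CREB coactivator Crtc1, the serum response factor cofactor Mkl1 and the MAP kinase kinase Map2k2 rose by 0.21, 0.28 and 0.27 after Swim in the authors' deposited table (adjusted p 0.0044, 0.0064 and 0.0096). Zfp36, which speeds the decay of RNAs with AU-rich elements such as that of Fos, rose by 0.63 after Restraint in the authors' deposited table (adjusted p 0.0062), and Fbxw7, part of a ubiquitin ligase for Jun, fell by 0.14 after Swim there (adjusted p 0.02). Of the described targets, Nptx2, a secreted synaptic pentraxin, rose by 0.36 after Restraint and 0.47 after Swim (adjusted p 0.012 and 8.1e-05), and Vgf, a neuropeptide precursor, and Vim, vimentin, rose by 0.45 and 0.23 after Swim (adjusted p 0.0085 and 0.023), all in the authors' deposited tables. Described targets did not all move 1 way: after ventral Restraint 1 was called higher and 1 lower, and after ventral Swim 5 higher and none lower. The lower one, Cd44, had a log2 fold change of -0.66 in the authors' deposited table (adjusted p 0.037). Of the calls in these groups, Mef2c and Zfp36 after Restraint and Nptx2 after Swim passed after GC correction. Those of Crtc1, Mkl1, Map2k2, Fbxw7, Vgf, Vim and Cd44 did not.

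As a description, the log2 CPM of each member over the 12 group means was compared with that of 13127 genes held in all tables at 1 CPM or more. The 12 points are means of 5 libraries with no error, and genes of 1 group share its libraries and depth. Fos and Fosb were each other's nearest gene (Pearson's r 0.97), followed for Fos by Herpud1 (0.92), Sik1 (0.91) and Irf2bp2 (0.90), and for Fosb by Sik1 (0.94), Arid5a (0.93) and Herpud1 (0.91). Nearest to Junb were Egr4 (0.95), Nr4a1 (0.94), Ier2 (0.91) and Gadd45b (0.90). Jund stood nearest to Bmyc (0.97), Scand1 (0.95), Rnf187 (0.94) and Ppp1r35 (0.93), Jun to Fam43b (0.92), Dolpp1 (0.90), Ydjc (0.88) and Rnaseh1 (0.86), and Fosl2 to Tgfb3, Chrm4, Zdbf2 and Il6ra (0.96 each). Among the members, Junb had r of 0.80 with Fos and 0.62 with Jund, and Jun had r of 0.20 with Fos.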

How the data were processed

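RNA of 60 hippocampal libraries, 5 in each of 12 groups, was compared by the authors in 10 tables. Per the file headers, the deposited values are the mean estimated count of either group, the fold change as a ratio, its log2 value, and a p-value with an adjusted p. The submitters' processing notes list Bowtie 0.12.2 and mm8 but no role, and the counting program and test were not given in the sources used here. Between 144 and 148 repeated entries were dropped from each file, leaving 13610 to 13784 genes, and the smallest sum of 2 group means was 22. The deposited adjusted p matched the Benjamini-Hochberg value over all entries.

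Groups were read from the sample titles. A call is the authors' adjusted p under 0.05. The implied error is the size of the log2 fold change divided by the normal quantile its p-value corresponds to. Differences between regions or treatments were set against the root of their summed squared errors under a normal distribution, with Benjamini-Hochberg adjustment over all genes. The script was first run on simulated data, which checks its calculation only. That run cannot show whether normal errors or independent regions hold for these libraries. CPM used the sum of group means. GC content (mean over transcripts) and lengths came from GENCODE M21, with at least 99.76% of genes matched. GC correction subtracts a lowess fit of log2 fold change on GC content (fraction 0.3). It keeps the implied error of the uncorrected fold change, so its p-values are not those of a test on corrected libraries. The tools were Python 3.11.15, statsmodels 0.14.6 and scipy 1.17.1. Pathway genes were named where they had 1 of the 3 lowest adjusted p of their list past the test, or passed in at least 5 tables, and likeness named 4 genes for each member. Cd44 was named beside these as the described target called lower. The members, lists and alternatives were chosen with earlier results of these data known. Precision is limited by 5 libraries a group and by depth, with group totals from 19918572 to 25010052. Alternatives were a stricter threshold, GC correction, total-count scaling, a filter on low counts, a t distribution and the longest transcript as length.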

Additional observations from a re-analysis of the deposited data

Results flagged for a closer look

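Responses that differed between ventral and dorsal hippocampus by the test of the difference were singled out for 5 of the 6 genes. Of all genes, 1.98% passed that test for Restraint and 10.2% for Swim. Those with the larger value in ventral hippocampus were 1.75% and 6.93%. After Restraint the ventral minus dorsal log2 fold change was 0.65 for Fos, 0.57 for Jun, 1.22 for Junb and 1.18 for Jund. After Swim it was 0.60 for Fos, 0.65 for Fosb, 0.61 for Jun, 1.40 for Junb and 1.21 for Jund. All 9 values share the Homecage groups of both regions. The Homecage levels beside them were 28.8 CPM in dorsal and 14.1 in ventral hippocampus for Junb, 35.1 and 20.1 for Jund, 84 and 73.8 for Jun, 5.66 and 5.55 for Fos, and 5 and 5.64 for Fosb. None of the 9 passed after GC correction.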

How the results depend on the processing

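Total-count scaling and a filter at 100 counts left the number of members called within 1.5 times in all 25 comparisons. At an adjusted p of 0.01 the regional difference for Restraint went from 4 members to 0. The regional level after Swim went from 4 to 2, and the share of all genes at that threshold is not given here. With GC correction the regional differences for Restraint and Swim held 0 members, where 0.0518% and 0.525% of all genes passed. The level after Swim held 2, where 16% passed, and the cause was not tested. That step turned the sign of 12 values, none of which passed under either setting: Jun at -0.02 in whole Swim and 0.01 in dorsal Handling, Junb at 0.22 in dorsal Restraint, Fos at 0.01 between Homecage regions, Fosb at -0.04 and Fosl2 at -0.08 in the regional differences for Handling and Swim, Fos, Jun and Junb at -0.02, -0.02 and -0.04 in whole Restraint against Handling, Fos and Fosb at -0.00 and -0.06 in whole Swim against Handling, and Jund at -0.02 in ventral Restraint against Handling. Total-count scaling turned 3: Fosl2 at -0.00 in the regional difference for Swim, and Jun and Jund at -0.01 and -0.02 in ventral Restraint against Handling.

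Errors implied by a t distribution with 8 degrees of freedom raised 11 counts: to 2 and 3 for the regional difference and level after Handling, to 1, 2 and 3 among whole treatment pairs (Restraint against Handling, Swim against Handling, Swim against Restraint), to 2, 2 and 2 among dorsal pairs and to 2, 2 and 3 among ventral pairs in the same order. For very small p these errors fall below the counting error of the summed counts, in 27 of 60 values. For Fos in whole Restraint the error was 6e-12 against 0.072. The normal errors fell below it in 0 of 60. The share of all genes called with the t errors is not given here. Those 11 counts are therefore not read as a result about the members. The longest transcript as length moved 60 per-length shares out of their 95% binomial interval and left 12 within it, which covers counting error only. Without values of single libraries no replicate could be left out. No paired analysis was possible because the tables hold group means only.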
